A study of Mus musculus with 9 samples.

Results

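RING1B binding at the core genes of the Hedgehog pathway was compared between Eed-/- and Eed+/+ mouse embryonic stem cells (mESCs). The 8 genes were the ligand genes Shh, Ihh and Dhh, the receptor gene Ptch1, the transcription factor genes Gli1, Gli2 and Gli3, and Hhip, which encodes a membrane protein that binds and sequesters the ligands. Their peaks were those that name 1 of these genes as nearest gene in the deposited lists. They numbered 6 of 1810 peaks in Eed-/- cells and 4 of 2347 peaks in Eed+/+ cells, and 4 of the 8 genes had none in either genotype. RING1B was mapped by chromatin immunoprecipitation and sequencing (ChIP-seq), with 1 peak call for each genotype. Eed-/- mESCs are a constitutive null for EED, a core subunit of Polycomb repressive complex PRC2, and lack the histone mark H3K27me3 that PRC2 places. Eed+/+ mESCs are the wild type, and both are labelled as C57BL/6 and were grown with serum and LIF. The Eed-/- immunoprecipitate was sequenced in 3 lanes to 70343706 mapped tags, and the Eed+/+ immunoprecipitate in 1 lane to 16814546, a ratio of 4.18. No value therefore has a replicate error, no test between genotypes was possible, and the intervals given cover counting error only. A difference between these cell lines other than EED, or in the immunoprecipitation, cannot be told apart from the genotype.

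Hedgehog ligands are secreted proteins that bind PTCH1 on receiving cells and relieve its inhibition of the membrane protein SMO, after which GLI2 acts mainly as an activator and GLI3 is no longer processed to a repressor. Gli1, Ptch1 and Hhip are themselves transcribed in response to the signal. RING1B is the catalytic subunit of PRC1, which monoubiquitylates histone H2A at lysine 119 and occupies CpG islands of many silent developmental genes in mESCs. Peak lists hold no expression, so the cell type could not be checked from levels. No RING1B peak of either genotype lay at 4 pluripotency genes, Pou5f1, Nanog, Sox2 and Zfp42, the nearest being an Eed-/- peak 10288 bp from Sox2.

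The bound sequences were rich in CG dinucleotides. From each overlap between genotypes, 200 bases are printed with CG in capitals, on the strand of the gene (mm9, − strand in each case). They are the window of highest CG count that is clear of annotated untranslated bases, so richer bases may lie elsewhere in an overlap. At Ptch1, bases between its RefSeq and GENCODE starts were also left out. Both Shh windows are shown because Eed-/- cells kept separate peaks there. The first lies in the first intron of Shh (chr5:28790946-28791145, 31 CG) and the second in the coding part of exon 3 (chr5:28784688-28784887, 36 CG). The third line is the richest window of the stretch between those Eed-/- peaks (chr5:28786408-28786607, 22 CG), which was covered in Eed+/+ cells and not in Eed-/- cells.
Shh intron 1: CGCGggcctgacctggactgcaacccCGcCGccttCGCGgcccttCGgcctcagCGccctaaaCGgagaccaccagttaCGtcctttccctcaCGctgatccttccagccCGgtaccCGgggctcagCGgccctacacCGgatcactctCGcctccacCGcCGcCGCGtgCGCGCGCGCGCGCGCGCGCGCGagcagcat
Shh exon 3: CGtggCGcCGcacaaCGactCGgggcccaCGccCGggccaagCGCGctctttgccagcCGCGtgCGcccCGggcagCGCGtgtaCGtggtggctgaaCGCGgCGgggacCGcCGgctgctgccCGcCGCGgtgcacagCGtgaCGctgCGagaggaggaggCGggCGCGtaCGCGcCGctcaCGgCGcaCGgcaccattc
Shh between the Eed-/- peaks: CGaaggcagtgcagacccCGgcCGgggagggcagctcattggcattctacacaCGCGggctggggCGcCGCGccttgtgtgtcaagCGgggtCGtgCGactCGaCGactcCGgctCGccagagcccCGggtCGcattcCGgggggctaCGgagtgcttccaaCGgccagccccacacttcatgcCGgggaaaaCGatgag

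The windows of the other ligand genes are both coding sequence, in exon 1 of Ihh (chr1:74997571-74997770, 24 CG) and in exon 3 of Dhh (chr15:98724536-98724735, 35 CG). Those of Ptch1 come from its pair of islands with a peak. One, with a peak in both genotypes, lies just inside the first intron of the Ptch1 transcript that starts farthest upstream (chr13:63674193-63674392, 24 CG). The other, with a listed peak in Eed-/- cells alone, lies directly upstream of the RefSeq start of Ptch1 (chr13:63667055-63667254, 37 CG).
Ihh exon 1: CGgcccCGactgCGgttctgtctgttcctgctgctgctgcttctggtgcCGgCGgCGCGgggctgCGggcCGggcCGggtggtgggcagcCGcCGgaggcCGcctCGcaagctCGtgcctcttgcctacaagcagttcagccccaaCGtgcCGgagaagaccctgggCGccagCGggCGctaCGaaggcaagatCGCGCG
Dhh exon 3: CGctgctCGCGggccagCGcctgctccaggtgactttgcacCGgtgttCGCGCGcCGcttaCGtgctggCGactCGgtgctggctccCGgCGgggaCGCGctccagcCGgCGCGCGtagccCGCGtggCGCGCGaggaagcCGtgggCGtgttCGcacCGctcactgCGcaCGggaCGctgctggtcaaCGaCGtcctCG
Ptch1 shared: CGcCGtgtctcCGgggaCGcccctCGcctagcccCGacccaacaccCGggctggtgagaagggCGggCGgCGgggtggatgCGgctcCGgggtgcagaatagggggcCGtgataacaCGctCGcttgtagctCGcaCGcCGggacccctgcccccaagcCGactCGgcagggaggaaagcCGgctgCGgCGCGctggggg
Ptch1 Eed-/- only: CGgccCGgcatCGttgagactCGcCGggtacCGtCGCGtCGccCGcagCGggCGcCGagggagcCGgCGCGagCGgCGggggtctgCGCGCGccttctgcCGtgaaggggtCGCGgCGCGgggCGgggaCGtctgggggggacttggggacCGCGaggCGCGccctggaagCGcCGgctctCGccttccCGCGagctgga

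For comparison, the 200 bases before the start of Gli3 (chr13:15554868-15555067, + strand, 24 CG) and of Hhip (chr8:82581906-82582105, − strand, 24 CG) are printed, and neither had a peak in either genotype. They hold as many CG as the windows of Ihh exon 1 and of the shared Ptch1 island. Those windows were picked for high CG outside untranslated bases, while the promoter windows have a fixed position. The equal counts therefore do not compare the CG content of bound and unbound islands.
Gli3 promoter: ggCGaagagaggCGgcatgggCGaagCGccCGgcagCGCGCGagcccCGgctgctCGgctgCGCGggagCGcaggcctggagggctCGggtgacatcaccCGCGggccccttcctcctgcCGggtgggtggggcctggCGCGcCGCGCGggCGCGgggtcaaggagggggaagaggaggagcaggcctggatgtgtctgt
Hhip promoter: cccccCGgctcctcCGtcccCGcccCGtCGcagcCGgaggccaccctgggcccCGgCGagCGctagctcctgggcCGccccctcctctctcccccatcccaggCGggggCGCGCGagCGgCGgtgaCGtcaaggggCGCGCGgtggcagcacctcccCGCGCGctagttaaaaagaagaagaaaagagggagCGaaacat

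The same 4 genes, Shh, Ihh, Dhh and Ptch1, carried RING1B in Eed-/- and in Eed+/+ cells. They make up 50% of the 8 genes in each genotype, where 6.76% of 22218 protein-coding genes were the nearest gene of an Eed-/- peak and 8.1% of an Eed+/+ peak. By nearest gene, all 3 ligand genes were thus bound and all 3 Gli genes were not. Overlap by at least 1 bp was found for 5 of the 6 Eed-/- peaks (83.3%, exact 95% interval 35.9 to 99.6%), against 73.1% of all Eed-/- peaks. All 4 Eed+/+ peaks overlapped an Eed-/- peak (100%, interval 39.8 to 100%), against 53.1% of all Eed+/+ peaks. That share was 50% (2 of 4) with an FDR of 1% or less required, and 25% (1 of 4) with more than 100 Eed-/- tags required after scaling to the Eed+/+ depth. With peaks taken within 5 kb of a gene instead, which adds an Eed+/+ peak near Gli1, it was 80% (4 of 5). With so few peaks, several of them of 1 gene, these shares are a description of the loci.

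The Eed-/- peaks were narrower and contained far fewer tags for their depth. They covered 17269 bp in all, with a median width of 2246 bp, against 23981 bp and a median width of 5662 bp for the Eed+/+ peaks. Median widths over the whole lists were 2155 bp in Eed-/- and 2665 bp in Eed+/+ cells. In pairs of overlapping peaks, the median ratio of Eed-/- to Eed+/+ width was 0.659 at these genes and 0.833 over all pairs. A RING1B level was computed as tags per kb of peak and per 1000000 mapped tags. It ran from 1.03 to 2.78 with a median of 1.43 over the 6 Eed-/- peaks, and from 5.81 to 11.2 with a median of 9.74 over the 4 Eed+/+ peaks. These ranges did not overlap. Those of the whole lists did, at 0.849 to 7.01 in Eed-/- and 1.78 to 22.4 in Eed+/+ cells. Ranges over 1810 and 2347 peaks are wider by number alone, so they cannot show whether the separation is particular to these genes. Of all 1247 overlapping pairs, 100% had the lower level in Eed-/- cells. The limit of more than 100 tags also admits lower levels in Eed-/- cells, from 0.666 against 2.25 in Eed+/+ cells at the median peak width. The medians of the whole lists were 1.32 in Eed-/- and 4.80 in Eed+/+ cells. Single Eed-/- peaks ranked from 12 to 1671 of 1810 in their list, and the Eed+/+ peaks ranked 71, 119, 182 and 787 of 2347, all in the upper part of theirs. Fold enrichment over background, as the peak caller gave it, ran from 4.41 to 8.46 in Eed-/- and from 17.45 to 45.42 in Eed+/+ cells.

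**Figure D1:**
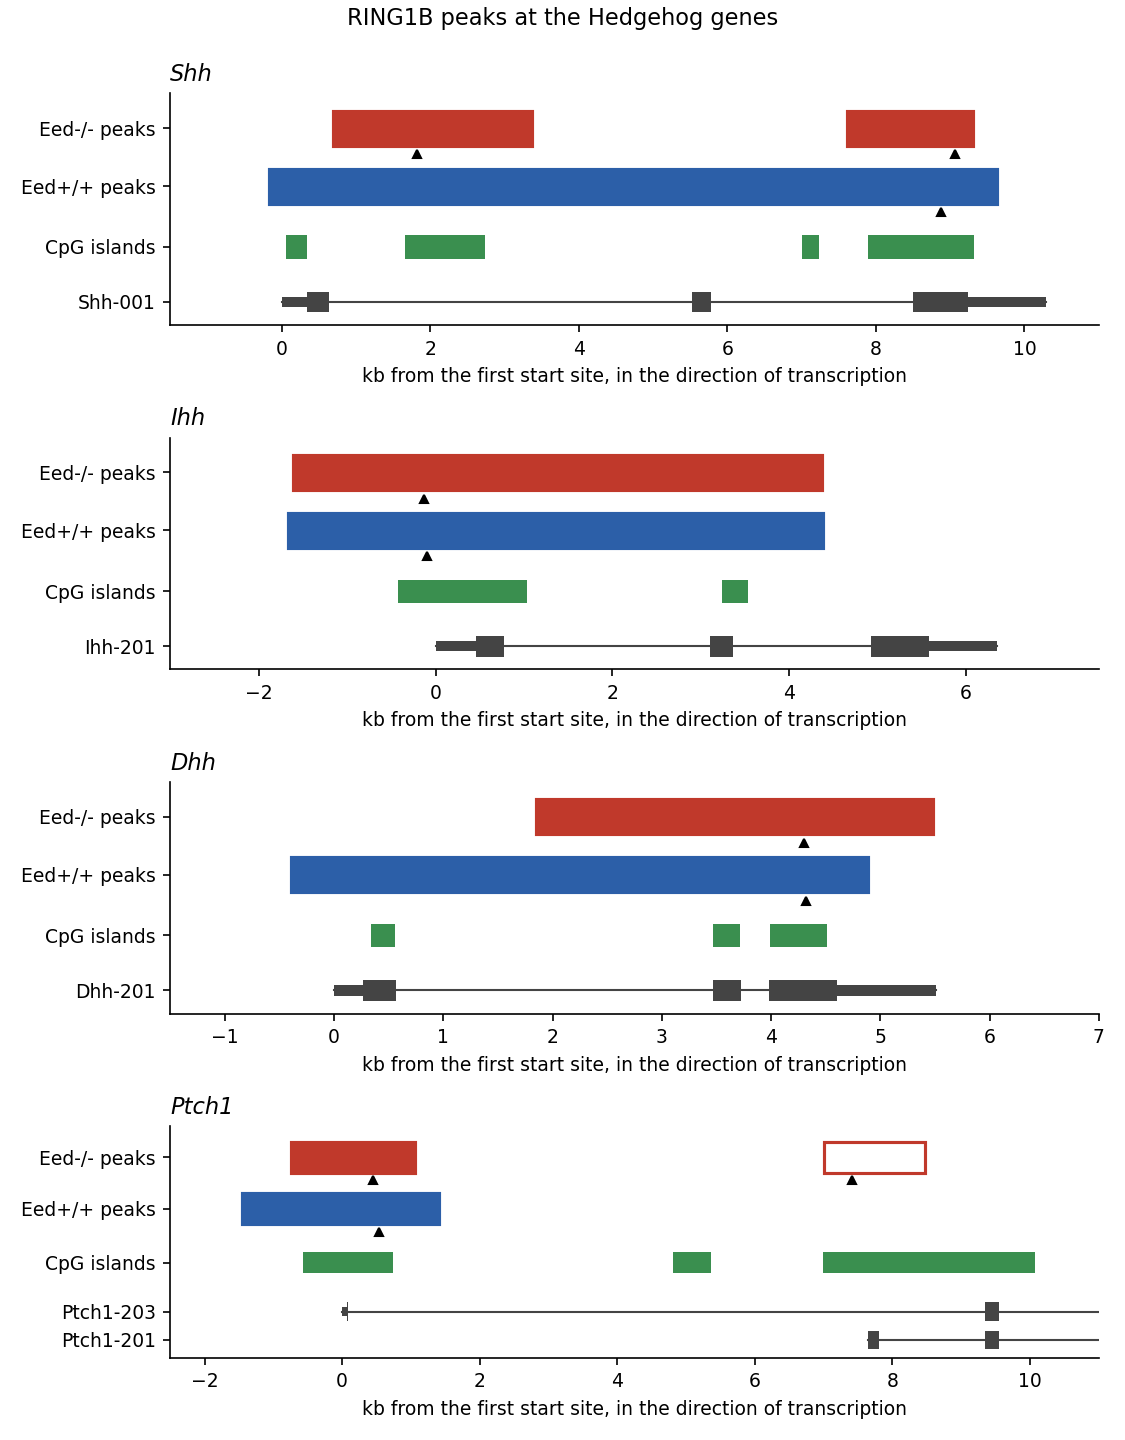
Positions of RING1B peaks, CpG islands and exons at the 4 bound genes, in kb from the first annotated start site in the direction of transcription. Red bars are Eed-/- peaks (open where no Eed+/+ peak overlaps), blue bars are Eed+/+ peaks, triangles are peak summits, green bars are CpG islands, and thick grey boxes are coding exons. At Shh, 2 Eed-/- peaks of 2691 and 1694 bp lie within 1 Eed+/+ peak of 9792 bp, and at Ptch1 the open Eed-/- peak of 1470 bp lies over a separate island.

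Shh, which encodes the ligand that patterns the neural tube and limb, had the widest Eed+/+ domain of the group and the most broken up Eed-/- one. Shh lies on chromosome 5 from 28783355 to 28793641 (mm9, − strand, NM_009170). In Eed-/- cells 1 peak (28790266 to 28792956) lay in intron 1, from 685 to 3375 bp downstream of the start site, with 231 tags and a level of 1.22 (95% interval 1.07 to 1.39). A separate Eed-/- peak (28784338 to 28786031) lay 7610 to 9303 bp downstream and had 331 tags and a level of 2.78 (2.49 to 3.09). That level ranked 12 of 1810 Eed-/- peaks, whereas the intron peak ranked 1183. By FDR the order was reversed, with 1.67% for the peak farther downstream and 0.65% for the intron peak. In Eed+/+ cells a single peak (28784014 to 28793805) of 9792 bp covered the start site and most of the gene body, and held 1537 tags at a level of 9.34 (8.87 to 9.81) and a fold enrichment of 45.42. It ranked 33 of 2347 by width. Neither Eed-/- peak covered the Shh start site, and together they covered 44.8% of the Eed+/+ peak. Splitting of this kind was usual for wide domains: of the 33 Eed+/+ peaks at least as wide as that of Shh, 23 (69.7%) were overlapped by 2 or more Eed-/- peaks, against 68 of all 2347 (2.9%).

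The strongest point at Shh was shared by both genotypes and lay at the far end of the gene. The summit of the Eed-/- peak at exon 3 stood 9071 bp downstream of the start site and that of the Eed+/+ peak 8883 bp downstream, 188 bp apart, and both fell in coding sequence. Set against the Eed+/+ peak, the Eed-/- level was 0.298 times as high at exon 3 (0.263 to 0.335) and 0.131 times as high in intron 1 (0.113 to 0.150). The Eed+/+ level is the mean over the whole 9792 bp, so both ratios set a narrow peak against a wide one. The summit of the intron 1 peak lay 7066 bp from that of the Eed+/+ peak.

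Ihh, the ligand gene of growing cartilage, was the only gene of the 4 whose domain had nearly the same ends in both genotypes. It lies on chromosome 1 from 74991891 to 74998246 (− strand, NM_010544). The Eed-/- peak (74993881 to 74999854) was 5974 bp wide and ranked 22 of 1810 by width, with 558 tags and a level of 1.33 (1.22 to 1.44). The Eed+/+ peak (74993869 to 74999912) was 6044 bp wide, with 1032 tags and a level of 10.2 (9.54 to 10.8). Both covered the start site and the first 2 of the 3 exons, and the Eed-/- peak covered 98.8% of the Eed+/+ peak. Their summits stood 130 bp upstream of the start site in Eed-/- cells and 92 bp upstream in Eed+/+ cells, inside the CpG island of 1462 bp at the promoter. The level ratio of Eed-/- to Eed+/+ was 0.131 (0.118 to 0.145), so that a nearly equal extent went with a 7.65-fold lower level in Eed-/- cells.

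At Dhh, the ligand gene of Sertoli and Schwann cells, the domain ended short of the promoter in Eed-/- cells. Dhh lies on chromosome 15 from 98723462 to 98728971 (− strand, NM_007857). The Eed-/- peak (98723486 to 98727124, 3639 bp) ran from 1847 to 5485 bp downstream of the start site and had 402 tags and a level of 1.57 (1.42 to 1.73). The Eed+/+ peak (98724087 to 98729366, 5280 bp) ran from 395 bp upstream to 4884 bp downstream and had 994 tags and a level of 11.2 (10.5 to 11.9), the highest of the 4 Eed+/+ peaks. As at Shh, the summits were close together and far from the promoter, at 4302 bp downstream in Eed-/- and 4320 bp downstream in Eed+/+ cells, both in the coding part of exon 3. The Eed-/- peak covered 57.5% of the Eed+/+ peak, and the level ratio was 0.140 (0.125 to 0.158).

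Ptch1, which encodes the receptor, had the weakest Eed+/+ peak of the 4 and the only Eed-/- peak without an Eed+/+ counterpart. The gene lies on chromosome 13 from 63610261 to 63674474 (− strand, NM_008957), and its transcripts start at several places. Over the start site of the transcript that begins farthest upstream (63674474, 7 exons) the Eed-/- peak (63673416 to 63675216, 1801 bp) had 131 tags and a level of 1.03 (0.865 to 1.23). The Eed+/+ peak there (63673063 to 63675927, 2865 bp) had 280 tags and a level of 5.81 (5.15 to 6.53), with a fold enrichment of 17.45. The level ratio was 0.178 (0.143 to 0.220), and the summits were 84 bp apart.

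The second Ptch1 peak in Eed-/- cells (63666004 to 63667473, 1470 bp) covered the start site of the full-length transcript (63666828, 23 exons). Its summit, at 63667068, stood 25 bp from the start that RefSeq gives for Ptch1, found at 63667043 by matching the RefSeq promoter sequence to mm9. It had 158 tags and an FDR of 1.2%, and its level of 1.53 (1.30 to 1.79) was higher than the 1.03 of the shared Eed-/- peak. By fold enrichment the order was reversed, with 4.41 against 4.57 for the shared peak, and 4.41 was the lowest of the Eed-/- peaks of these genes. The nearest Eed+/+ peak ended 6235 bp from that start site. At the Eed+/+ depth its level would correspond to 37.8 tags, and the lists hold only peaks of more than 100 tags, so binding as weak as this would not have been listed in Eed+/+ cells. The other 5 Eed-/- peaks would hold 31.3 to 133 tags at that depth, and only that of Ihh more than 100.

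**Figure D2:**
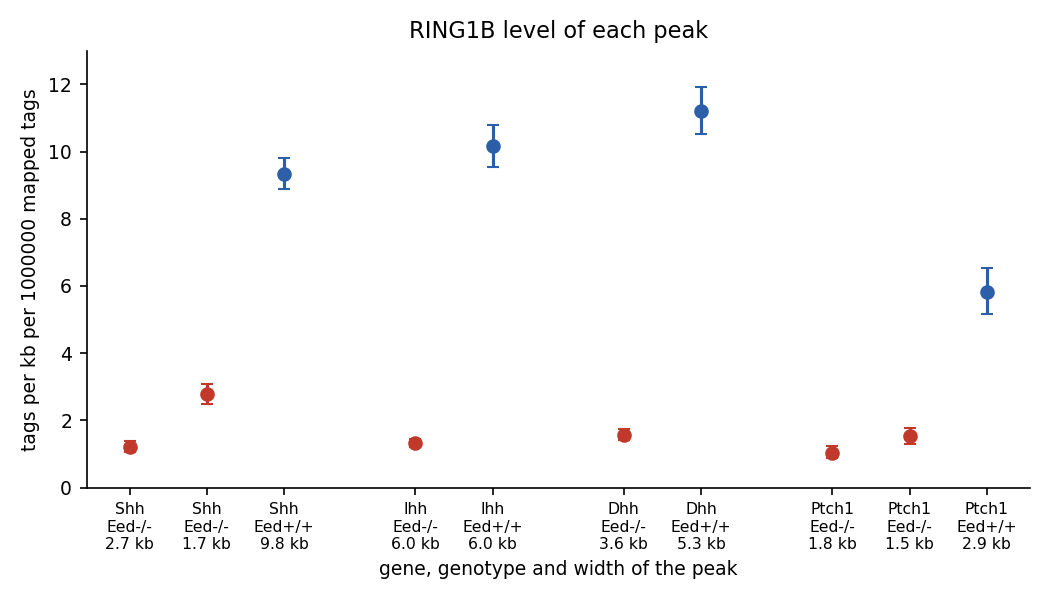
RING1B level of each peak, in tags per kb of peak per 1000000 mapped tags, with exact 95% Poisson intervals. Red points are Eed-/- peaks and blue points are Eed+/+ peaks, grouped by gene, with peak widths below. The 6 Eed-/- peaks lie between 1.03 and 2.78 and the 4 Eed+/+ peaks between 5.81 and 11.2.

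Over the 4 pairs of an Eed+/+ peak and the Eed-/- peak of longest overlap, the ratio of levels had a median of 0.136 and ran from 0.131 to 0.178. A lower scaled level in Eed-/- cells was general, found in 100% of the 1247 pairs of the lists, whose ratio had a median of 0.225 with quartiles of 0.179 and 0.303. By this pairing the 4 Hedgehog pairs all fell below the lower quartile of all pairs, at percentiles of 4.49 to 24.8. At Shh this rests on the intron 1 peak, whose summit lay 7066 bp from the Eed+/+ summit. The exon 3 peak of Shh, with a summit 188 bp away, had a ratio of 0.298, at percentile 73.9. Pairs as strong in Eed+/+ cells as that of Shh had similar ratios, since 165 pairs with an Eed+/+ level of at least 9.34 had a median ratio of 0.144 (quartiles 0.130 and 0.167). The deposited fold enrichment gave a median ratio of 0.146 for the 4 genes, against 0.248 for all pairs. By that measure the ligand genes lay at percentiles of 5.61 to 19.8, but Ptch1, with a ratio of 0.262, lay at 54.0.

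The size of this difference depends on what the tags are scaled to. Peaks held 0.625% of mapped tags in Eed-/- cells and 4.40% in Eed+/+ cells. Scaled by the tags in all peaks of each list, the median ratio was 0.954 for the 4 genes and 1.58 for all pairs. By this scaling the levels of the 4 genes were nearly equal in the genotypes and the direction over all pairs was reversed. The share of tags in peaks moves with the result, and its part in the result was not tested.

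**Figure D3:**
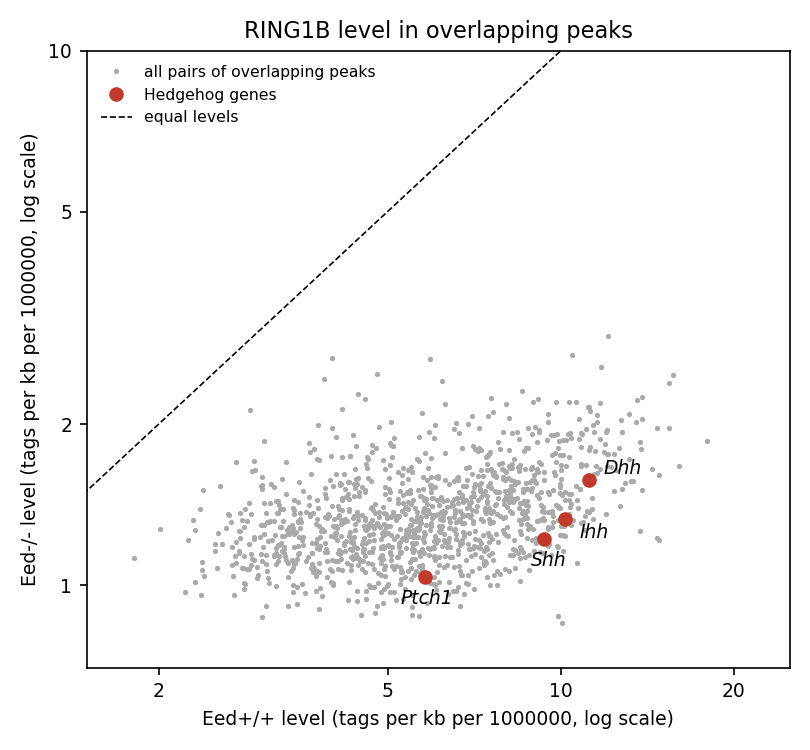
RING1B level in Eed-/- cells (vertical axis) against that in Eed+/+ cells (horizontal axis) for 1247 pairs of overlapping peaks, both in tags per kb per 1000000 mapped tags on log scales. Red points are the 4 Hedgehog pairs (at Shh the intron 1 peak), grey points all other pairs, and the dashed line marks equal levels. The pairs of the 3 ligand genes lie in the right part of the cloud and that of Ptch1 near its lower edge, with Eed-/- levels of 1.03 to 1.57.

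All 6 Eed-/- peaks and all 4 Eed+/+ peaks of these genes lay on CpG islands, as did 95.2% of all Eed-/- and 94% of all Eed+/+ peaks. Within 5 kb of the 4 bound genes were 12 islands, of which Eed-/- peaks touched 8 and Eed+/+ peaks 10. At Shh, Eed-/- peaks lay on the longest pair of islands, of 1428 and 1080 bp, and not on those of 274 and 218 bp. At Dhh, the island of 222 bp near the start site was the one without an Eed-/- peak. The start sites of Shh and Dhh themselves lay outside islands, and both were covered by RING1B in Eed+/+ cells only. Ptch1 differed from them, since its island of 3095 bp had a peak in Eed-/- cells alone.

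Within each Eed+/+ peak, the bases that Eed-/- peaks also covered were richer in CG. At Shh they held 6.93 CG per 100 bases over 4385 bp, against 3.16 in the other 5407 bp of the Eed+/+ peak. At Dhh the densities were 5.50 inside and 2.59 outside, and at Ptch1 6.94 inside and 1.03 outside. For Ihh only 70 bp lay outside. This was general: of 617 Eed+/+ peaks with at least 500 bp outside an overlapping Eed-/- peak, 603 (97.7%) were denser inside, with medians of 6.45 inside and 2.51 outside. The windows printed for Shh show the same at the level of bases, with 31 and 36 CG in those under the Eed-/- peaks and 22 in the one between them.

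**Figure D4:**
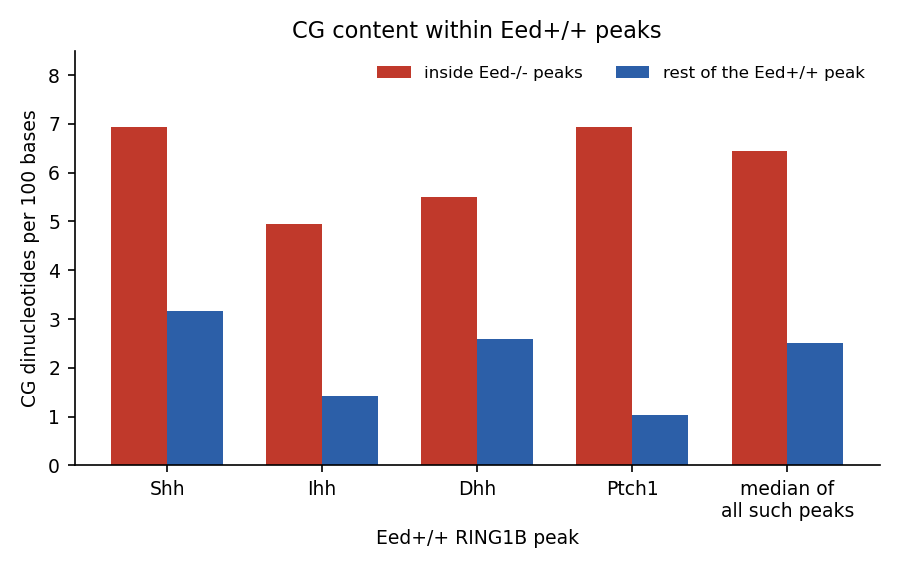
CG dinucleotides per 100 bases within each Eed+/+ RING1B peak, for the bases also covered by Eed-/- peaks (red) and for the rest of the Eed+/+ peak (blue). The last pair of bars gives the medians over the 617 peaks with at least 500 bp outside, 6.45 inside and 2.51 outside. Density is higher inside at all 4 genes, and the rest of the Ihh peak is only 70 bp.

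Gli1, Gli2, Gli3 and Hhip were the nearest gene of no peak in either genotype, although 3 of them start in a CpG island. The island at Gli3 is 1665 bp long, and the 1000 bp around the Gli3 start site hold 11 CG per 100 bases, at percentile 95.7 of all protein-coding genes and above Ihh (10.1) and Ptch1 (8.9). The starts of Hhip (5.8 CG per 100 bases) and Gli2 (6.5) also lay in islands, of 398 and 385 bp. Across the genome, 10.6% of 9994 genes with a start site on an island had an Eed-/- peak within 1 kb of it and 11.9% an Eed+/+ peak, so an unbound island is the usual case. Shh (3.9) and Dhh (4.1), which were bound, had start regions no denser than the median gene (4.1). CG density at the start site thus did not order the bound and unbound genes here.

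Peaks were far from Gli3 and Hhip and closer to Gli1 and Gli2. No peak of either genotype lay within 500 kb of Gli3 or of Hhip, and the nearest to Hhip was 821039 bp away in Eed-/- and 820662 bp in Eed+/+ cells, at Gab1. Near Gli2, which encodes the main initial activator, the nearest Eed-/- peak was 77720 bp away, near Tcfcp2l1, and the nearest Eed+/+ peak 365568 bp away, near Inhbb. Gli1 had an Eed+/+ peak 1903 bp beyond its 3′ end (126762365 to 126765042 on chromosome 10, 237 tags, level 5.26, fold enrichment 12.31), on an island of 915 bp. The lists give that peak to the neighbouring gene Arhgap9, and no Eed-/- peak overlapped it. The nearest Eed-/- peak to Gli1 was 162582 bp away. Within 500 kb, Ihh had 10 Eed-/- and 16 Eed+/+ peaks, Dhh 7 and 12, Shh 4 and 5, and Ptch1 2 and 1, each with its own peaks included. Gli1 had 3 Eed-/- and 8 Eed+/+ peaks and Gli2 3 and 1 within that distance, so these counts did not separate the bound from the unbound genes. A gene without a peak is one with no region of more than 100 tags that passed the FDR limit. At the median peak width, a region just past that tag limit has a level of 0.666 in Eed-/- and 2.25 in Eed+/+ cells, so that weaker binding over a region of that width could not be listed, while narrower regions need higher levels and wider ones lower levels.

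The binding motif of GLI proteins (TGGGTGGTC, or GACCACCCA on the other strand) was searched on both strands. It occurred once in the Eed-/- and once in the Eed+/+ peaks of these genes, at 1 site in the overlapping Ptch1 peaks. That site lies at 63674773 to 63674781 on chromosome 13, 303 bp upstream of the first Ptch1 start site, and is printed in capitals with 10 bases on each side on the − strand (chr13:63674763-63674791) because Ptch1 is a known GLI target. Of all peaks, 2.6% of Eed-/- and 3.32% of Eed+/+ peaks hold the motif. It was 755 bp from the Eed-/- summit and 839 bp from the Eed+/+ summit. In windows of 1000 bp centred on the summits no peak of these genes held it, as against 0.773% of all Eed-/- and 0.895% of all Eed+/+ windows.
Ptch1 GLI motif: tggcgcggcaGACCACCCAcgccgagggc

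Elsewhere in the pathway, 6 of 23 genes (22 of them in the annotation) had a peak in at least 1 genotype. The list was written with earlier results of these data known, so its shares are a description only. An Eed-/- peak was nearest to 3 of them, where 6.76% of all genes had one, and an Eed+/+ peak to 6, where 8.1% of all genes had one. The other 17, among them Smo and Sufu, had neither. Gas1, a co-receptor gene, had a level of 2.11 in Eed-/- and 7.63 in Eed+/+ cells. Lrp2, which encodes an endocytic receptor for SHH, had levels of 1.72 in Eed-/- and 4.62 in Eed+/+ cells, and Scube3, of the family that releases the ligands from cells, had 1.06 in Eed-/- and 3.40 in Eed+/+ cells. Scube1, Disp2 and Gpr161 had peaks in Eed+/+ cells alone. The median ratio of the 3 pairs was 0.313.

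Most of the listed transcription factor genes that respond to Hedgehog signals were bound. This list too was written with earlier results of these data known, so its shares are a description only. Of 18 such genes, with roles in the neural tube, limb, gut or skeleton, 15 had an Eed-/- peak (83.3%, against 6.76% of all genes) and 17 an Eed+/+ peak (94.4%, against 8.1%). All 20 of their Eed-/- peaks overlapped Eed+/+ peaks, where 73.1% of the whole list did. Of their 34 Eed+/+ peaks 17 were overlapped, near the 53.1% of the whole list, with a median ratio of 0.150. Foxa2, the floor plate factor, had 2 peaks in each genotype, with levels of 0.975 and 1.33 in Eed-/- cells and of 6.58 and 9.34 in Eed+/+ cells. Osr1 and Foxc2 had peaks in Eed+/+ cells alone, and a Foxc2 peak had the highest level of all 2347 Eed+/+ peaks, 22.4. The ratio of this list was close to that of the ligand genes and Ptch1, a description with no test.

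Ligand genes of another pathway were also widely bound, in lists likewise written with earlier results of these data known and given as a description only. Of 19 Wnt ligand genes, 13 had an Eed-/- peak (68.4%, against 6.76% of all genes) and 18 an Eed+/+ peak (94.7%, against 8.1%), and the median ratio of their 13 pairs was 0.181. Among 18 Notch ligand, receptor and Hes/Hey genes, 6 had an Eed-/- peak (33.3%, against 6.76%) and 8 an Eed+/+ peak (44.4%, against 8.1%), with a median ratio of 0.325 over 5 pairs.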

How the data were processed

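The data were 2 lists of RING1B ChIP-seq peaks, 1 from Eed-/- and 1 from Eed+/+ mESCs. Per the labels and methods, the authors aligned single-end tags with bowtie to mm9, discarded tags with several positions, and ran MACS with limits of an FDR under 2% and over 100 tags. Tool versions were not given in the sources used here, nor was the MACS control. All input samples of the series are labelled Eed+/+, with none from Eed-/- cells. The deposited lists hold other values per peak: coordinates, a tag count, fold enrichment, FDR and the nearest gene. Columns in which the authors marked overlaps between their lists were not used. The 3 Eed-/- lanes, labelled as replicates, were called together, and CBX7 and input samples (9 samples in all) were not used further. Mapped tags are those the methods state.

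Levels are tags per kb of peak per 1000000 mapped tags, without input subtraction, with exact Poisson or binomial 95% intervals. CpG islands were found in NCBIM37 (mm9) by a running score (17 for CG, −1 otherwise) with minima of 200 bp, 50% GC and 0.6 for observed over expected CG. The search was tested on simulated data. Genes came from GENCODE M1. Of the 8 genes, RefSeq promoters of 6 were matched to mm9 to keep untranslated bases out of the printed windows. Members and gene lists were chosen with earlier results of these data known, and they support nothing. All peaks of the 8 genes are named, and of other lists genes with a peak, up to 4 with values. Python 3.11.15, numpy 2.4.6, scipy 1.17.1, numba 0.67.0 and matplotlib 3.10.9 were used. Alternatives covered the FDR, tag and overlap thresholds, assignment, pairing, scaling and island definition.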

Additional observations from a re-analysis of the deposited data

How the results depend on the processing

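Of 28 alternative values, 11 moved beyond the counting interval or, for counts and lengths, by more than 1.5 times. With an FDR of 1% or less, 436 of 1810 Eed-/- peaks were left, and 2 of the 6 at these genes (8665 bp, both overlapped, 100%), the intron 1 peak of Shh and that of Ihh, the median level ratio was 0.131, and 2 of 4 Eed+/+ peaks (50%) were overlapped. With more than 100 tags required at the Eed+/+ depth, 120 of 1810 were left and 1 of the 6, that of Ihh (5974 bp, overlapped, 100%), 25% of the 4 Eed+/+ peaks were overlapped, and the ratio was 0.131. Scaled by tags in all peaks the ratio was 0.954, and with overlapping Eed-/- peaks summed it was 0.159. All 4 Eed+/+ peaks were left under both thresholds. Overlap of 50% of both peaks was met by 3 of 6 Eed-/- peaks (50%) and 3 of 4 Eed+/+ peaks (75%). By construction, the stricter thresholds leave fewer Eed-/- peaks and scaling by tags in all peaks changes the divisor. Summing adds the exon 3 peak of Shh to its pair. What else moved these values was not tested. Depth limits the comparison, since weak binding was listed more readily in Eed-/- cells. No paired analysis was possible because each genotype has 1 peak call, and no replicate could be left out for the same reason.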
